A study of Rattus norvegicus with 24 samples.

Results

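The miR-10, miR-99 and miR-100 family was followed in rat serum through its 5 mature 5p members, rno-miR-10a-5p, rno-miR-10b-5p, rno-miR-99a-5p, rno-miR-99b-5p and rno-miR-100-5p. The members were taken by name, without use of any measured value, and they are 5 of the 753 mature miRNA names in the count table. All 5 passed the low-count filter that left 136 miRNAs for testing. miR-10b-5p reached the level this filter asks for in fish oil libraries only, so its being tested rested on the groups where it was high. The serum came from male Wistar Kyoto rats in 4 groups of separate animals. The groups were fish oil with ozone (5 libraries analysed), fish oil with filtered air (6 libraries), normal diet with ozone (6 libraries) and normal diet with filtered air (6 libraries), each library from 1 rat. From 4 weeks of age the rats ate, for 8 weeks, a diet holding 6% fish oil by weight or the normal rodent chow. Exposure followed, to 0.8 ppm ozone or to filtered air, for 4 h on each of 2 days running. Rats were kept 2 per cage, and cage mates are not marked among the libraries. Since a diet with a different oil was not analysed here, fish oil and added oil in general cannot be told apart. Replicate 2 of the fish oil ozone group was not analysed here. Libraries are named below by group and replicate number.

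These miRNAs are among the oldest animal miRNA families. The miR-10 genes sit inside the Hox gene clusters, miR-10a in HoxB and miR-10b in HoxD, while the miR-99 and miR-100 genes sit beside let-7 and miR-125 genes. Like other miRNAs they pair with messenger RNAs mainly through the seed, the bases that follow the first base at the 5′ end. In human endothelium miR-10a is known to restrain inflammatory signalling through NF-κB, in mouse macrophages miR-10b represses the cholesterol exporters ABCA1 and ABCG1, and in human cells the miR-99 and miR-100 members lower mTOR. Many tissues make them, and a serum level does not tell which tissue released them.

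The mature sequences below are shown because the seed separates the miR-10 members from the miR-99 and miR-100 members, and because miR-10a and miR-10b are close enough to share reads. They come from RefSeq (build GRCr8), where 4 of the 5 members matched by name, and capitals mark the seed, bases 2 to 8.
rno-miR-10a-5p: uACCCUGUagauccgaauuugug
rno-miR-10b-5p: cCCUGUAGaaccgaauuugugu
rno-miR-99b-5p: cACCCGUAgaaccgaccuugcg
rno-miR-100-5p: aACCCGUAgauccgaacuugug
On that build the mature RNAs lie at chr10:81779730-81779752 for miR-10a-5p, chr3:80035886-80035907 for miR-10b-5p, chr1:67350070-67350091 for miR-99b-5p and chr8:50798307-50798328 for miR-100-5p, all on the plus strand. miR-99b and miR-100 share the seed ACCCGUA. The entry for miR-10b starts 2 bases further along than that of miR-10a, so the annotated seeds differ. The hairpin of miR-10b has ua just before its mature start, and read from there its bases 2 to 8 are ACCCUGU, as in miR-10a. In that register, over 23 bases, the pair differs by 1 substitution, U12A (miR-10a's base first, counted from 1 at the 5′ end of miR-10a-5p). The longest stretch shared by miR-10a and miR-100 is 11 bases, and that of miR-99b and miR-100 is 9 bases. How reads that match more than 1 of these names were assigned is not given in the sources used here, so values of miR-10a and miR-10b are uncertain to that extent.

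The files place the members on the older rat build rn5, with miR-10a-5p at 10:83968703-83968726, miR-10b-5p at 3:68113689-68113711, miR-99a-5p at 11:19707435-19707457, miR-99b-5p at 1:60623880-60623902 and miR-100-5p at 8:44222162-44222184. These intervals span 1 position more than the mature RNA for each of the 4 members with a sequence, so 1 end is not part of the miRNA. On rn5, let-7e-5p lies 151 bases from miR-99b-5p and miR-125a-5p lies 597 bases from it. The locus of let-7c-5p nearest to miR-99a-5p is 701 bases away, and the nearest let-7a-5p locus to miR-100-5p is 6298 bases away.

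Expected counts were rounded to whole numbers, and levels are CPM, counts relative to the miRNA total of a library after TMM scaling, which assumes that most miRNAs do not change. The miRNA total had a median of 32987 counts in fish oil ozone libraries (26772 to 45064), 39568 in fish oil air (23276 to 53694), 63547.5 in normal ozone (33739 to 94264) and 61721.5 in normal air (45372 to 88397). A floor of 3 counts corresponded to 31.8 to 129 CPM across libraries when taken without TMM scaling. That range is therefore not on the same scale as the TMM-scaled levels. The floor is a limit that allows for counting error but not for PCR copies of 1 molecule. The summed level of 4 smooth muscle miRNAs had a median of 268529 CPM in fish oil ozone (168097 to 437413), 245564 in fish oil air (110604 to 382123), 117195 in normal ozone (79644 to 190022) and 118898 in normal air (86279 to 269634). That of 4 platelet miRNAs had a median of 80863 CPM in fish oil ozone (49610 to 136074), 128900 in fish oil air (64956 to 180245), 257499 in normal ozone (225578 to 379421) and 275771 in normal air (197495 to 379429). The platelet sum of every fish oil library was thus below that of every normal diet library. The 4 platelet miRNAs were miR-191a-5p, miR-126a-3p, miR-223-3p and miR-25-3p. Of these, miR-126a-3p is also in the endothelial pair below and miR-223-3p is also a leukocyte marker. The sum therefore does not show how each of its members moved. The endothelial pair, the miR-126a arms, had a median of 25904 CPM in fish oil ozone (12475 to 32252), 17845 in fish oil air (8488 to 20712), 12462 in normal ozone (9976 to 28483) and 10127 in normal air (6429 to 14570). Of 4 erythrocyte markers, 3 were in the files, with a summed median of 1062 CPM in fish oil ozone (492 to 2630), 1163 in fish oil air (831 to 3059), 710 in normal ozone (271 to 1084) and 861 in normal air (496 to 1184). The hepatocyte pair, the miR-122 arms, had a median of 13543 CPM in fish oil ozone (10422 to 52664), 7892 in fish oil air (3331 to 13877), 19296 in normal ozone (6260 to 40726) and 25360 in normal air (4489 to 74202). Leukocyte markers had a median sum of 4341 CPM in fish oil ozone (2678 to 9074) and 4156 in fish oil air (3051 to 7703). On the normal diet it was 5031 in ozone (4021 to 9968) and 4473 in air (3147 to 8109). No marker found in the files was at 0 in every library. The medians of the smooth muscle, endothelial and erythrocyte sums were higher, and those of the platelet, hepatocyte and leukocyte sums lower, on fish oil under both exposures. None of these marker sums was tested between diets. The part of smooth muscle, endothelial, erythrocyte, platelet, hepatocyte and leukocyte markers in the differences below was not tested. An index of erythrocyte miRNAs served only as a covariate.

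The 5 members differed widely in abundance, and their order was nearly fixed. Over all 23 libraries miR-10a-5p averaged 1343 counts, miR-99b-5p 233, miR-99a-5p 38.6, miR-100-5p 25.2 and miR-10b-5p 8.48, which placed them at ranks 7, 35, 81, 100 and 125 of the 753 names by mean CPM. The first 2 places went to miR-10a-5p and miR-99b-5p in every library. The full order, miR-10a, miR-99b, miR-99a, miR-100, miR-10b, held in 18 libraries; in 4 others miR-100 stood above miR-99a, and in 1 library miR-99a was the lowest. Of the counts of the 5 members, miR-10a-5p took 71.7% to 86.7% and miR-10b-5p 0.0673% to 1.95%. The 5 members made up 4.81% ± 1.65 of miRNA counts in fish oil ozone (SD, n = 5), 3.5% ± 0.731 in fish oil air, 3.13% ± 1.17 in normal ozone and 2.67% ± 1.29 in normal air (n = 6 each). Neighbouring groups in that order differed by less than the larger of their SDs.

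**Figure D1:**
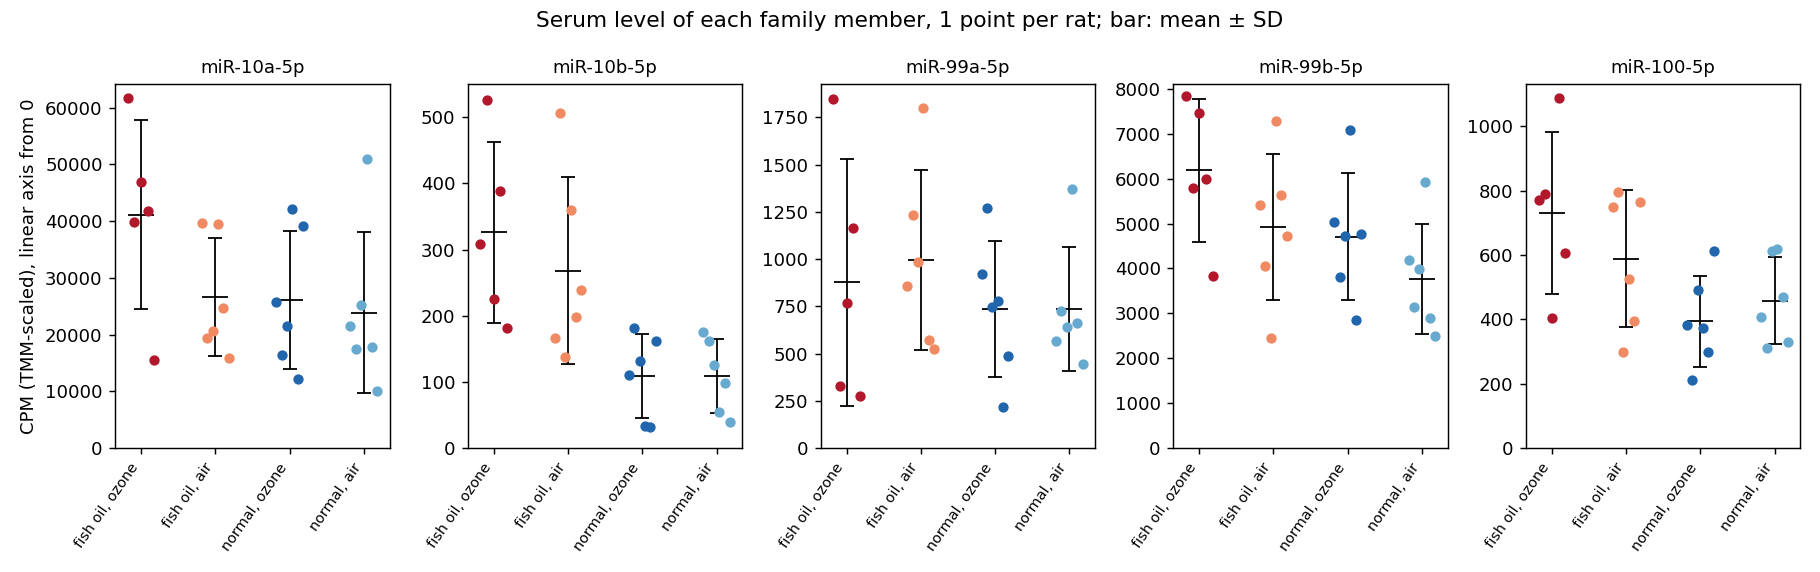
TMM-scaled CPM of each member in each library on a linear axis, 1 panel per member and 1 point per library, with the mean ± SD of each group (n = 5, 6, 6 and 6). miR-10b-5p lies between 182 and 526 CPM in fish oil ozone and between 31.3 and 181 CPM in normal ozone; for the other 4 members the diet groups overlap.

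Of the miR-10 pair, miR-10b-5p rose on fish oil averaged over exposures, and no change of the far more abundant miR-10a-5p was called. The direct comparison of the pair is their ratio, given below, which was lost in 15 of the 23 fits that left out 1 library. miR-10b-5p had 308, 526, 225, 389 and 182 CPM in fish oil ozone replicates 1, 3, 4, 5 and 6, and a lowest, median and highest of 31.3, 122 and 181 CPM in normal ozone. In filtered air the lowest, median and highest were 137, 219 and 507 CPM on fish oil and 39.5, 112 and 175 CPM on the normal diet. All 5 fish oil ozone libraries thus lay above all 6 normal ozone libraries, while under air the 2 diets overlapped. The separation under ozone is narrow, 182 against 181 CPM, in fish oil ozone 6 and normal ozone 2, each with 6 counts. On the deposited RPM scale the ozone groups overlapped, at 0.98 to 7.05 on fish oil and 0.338 to 4.01 on the normal diet.

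Group means of miR-10b-5p were 326 ± 137 CPM in fish oil ozone (SD, n = 5), 268 ± 141 in fish oil air, 109 ± 63.6 in normal ozone and 109 ± 55.5 in normal air (n = 6 each). Averaged over exposures, it rose 2.65-fold on fish oil, a log2 fold change of 1.41 ± 0.34 (SE; adjusted p = 0.00175, edgeR quasi-likelihood test with Benjamini-Hochberg adjustment over 136 miRNAs), and 11 of 11 fish oil libraries lay above the normal diet mean of their exposure. By size this was the 2nd highest log2 fold change of the 136, and by p it stood 16th. Both ranks are among miRNAs that passed the filter, which miR-10b-5p did through fish oil libraries alone. The call held when any 1 of the 23 libraries was left out, with log2 fold changes of 1.23 to 1.49. Under ozone the rise was 3-fold (log2 fold change 1.58 ± 0.49, adjusted p = 0.0171 by edgeR); it was lost without fish oil ozone 3 (1.28, adjusted p = 0.094) or without normal ozone 4 (1.31, adjusted p = 0.0631), and when no low-count filter was applied (1.51, adjusted p = 0.0545). It was smaller and lost when libraries were scaled to the read total described below (0.74, adjusted p = 0.365, edgeR) and on RPM with pseudocounts of 0.5 and 0.1 (0.61 and 0.79, adjusted p = 0.346 and 0.349, limma). Under air the log2 fold change was 1.23 ± 0.46 with an unadjusted p of 0.0124 and did not pass (adjusted p = 0.102, edgeR), with 6 of 6 fish oil libraries above the normal diet mean.

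The counts behind miR-10b-5p are small. Fish oil libraries held 10, 16, 10, 10 and 6 counts in ozone (replicates 1, 3, 4, 5 and 6) and 5 to 15 in air, a mean of 10.3 over 11 libraries, against 2 to 14 counts and a mean of 6.83 over the 12 normal diet libraries. At or under the floor of 3 counts were 0 of 11 fish oil libraries and 4 of 12 normal diet libraries. Raw miR-10b-5p counts were therefore higher on fish oil although the mean miRNA total there was 35462 counts, against 64498 on the normal diet. The other 4 members had lower mean raw counts on fish oil, for example 1184 for miR-10a-5p, against 1490 on the normal diet. As a share of all miRNA counts, pooled over libraries, miR-10b-5p made up 0.029% on fish oil and 0.0106% on the normal diet. As a share of miR-10a-5p counts it was 0.868% on fish oil and 0.459% on the normal diet.

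miR-10a-5p, the member restraining endothelial inflammation in human cells, had 61623, 39747, 46931, 41851 and 15511 CPM in fish oil ozone replicates 1, 3, 4, 5 and 6, while in normal ozone the lowest, median and highest were 12145, 23620 and 42099 CPM. The groups overlap, and fish oil ozone 6 lies below the normal ozone median. In air the lowest, median and highest were 15842, 22687 and 39638 CPM on fish oil and 10051, 19705 and 50871 CPM on the normal diet, and the single highest air library was on the normal diet. Averaged over exposures the log2 fold change of fish oil was 0.41 ± 0.26 and did not pass (adjusted p = 0.218, edgeR), with 7 of 11 fish oil libraries above the normal diet mean.

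In the miR-99 and miR-100 branch, which holds regulators of mTOR, miR-100-5p rose on fish oil when exposures were averaged, less firmly than miR-10b-5p. miR-100-5p had 770, 789, 405, 1089 and 607 CPM in fish oil ozone replicates 1, 3, 4, 5 and 6, and a lowest, median and highest of 212, 377 and 612 CPM in normal ozone. In air they were 300, 638 and 797 CPM on fish oil and 311, 438 and 619 CPM on the normal diet. Of the fish oil ozone values, 3 lie above every normal ozone value, and under air the diets overlap. The averaged log2 fold change was 0.61 ± 0.23, 1.53-fold (adjusted p = 0.032, edgeR), with 9 of 11 fish oil libraries above the normal diet mean. This call was lost in 15 of the 23 fits that each left out 1 library, in which the log2 fold change lay between 0.50 and 0.69 and the adjusted p between 0.0158 and 0.0926. It was lost as well without a low-count filter (adjusted p = 0.222, edgeR) and with an index of erythrocyte miRNAs (log2 of miR-451-5p over miR-23a-3p) as a covariate (adjusted p = 0.0662, edgeR). Under ozone alone the log2 fold change was 0.85 ± 0.33 (unadjusted p = 0.0147, adjusted p = 0.0589, edgeR), and under air it was 0.37 ± 0.32 (adjusted p = 0.425, edgeR).

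miR-99b-5p, the second most abundant member, had 7849, 5786, 7473, 5990 and 3825 CPM in fish oil ozone replicates 1, 3, 4, 5 and 6, and a lowest, median and highest of 2848, 4750 and 7084 CPM in normal ozone. In air it had 2458, 5063 and 7282 CPM on fish oil and 2487, 3563 and 5918 CPM on the normal diet. The groups overlap under both exposures, and the averaged log2 fold change of 0.39 ± 0.18 did not pass (unadjusted p = 0.0405, adjusted p = 0.0887, edgeR). It passed when fish oil air 3 was left out (0.46, adjusted p = 0.0345). miR-99a-5p had 1847, 329, 765, 1167 and 273 CPM in fish oil ozone replicates 1, 3, 4, 5 and 6, so that this group held both very high and very low libraries, against 219, 762 and 1270 CPM (lowest, median and highest) in normal ozone. In air it had 526, 922 and 1800 CPM on fish oil and 447, 653 and 1372 CPM on the normal diet. Its averaged log2 fold change was 0.35 ± 0.30 (adjusted p = 0.378, edgeR).

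Of the 5 members, 2 rose and 0 fell on fish oil averaged over exposures, and their median log2 fold change was 0.41, against 0.06 over all 136 miRNAs. Among all 136, 36.8% were called in either direction and 19.9% as higher. Under ozone 1 of 5 rose, where 22.8% of all were called and 12.5% were higher; the median was 0.65 for the members and 0 for all. Non-overlapping groups under ozone, as seen for miR-10b-5p, occurred for 6.62% of the 136. Under air 0 of 5 passed, where 5.88% of all were called, 0.735% as higher and 5.15% as lower, 2.94% had groups that did not overlap, and 39 of the 136 had an unadjusted p below 0.05; DESeq2 and limma voom also called 0 members there. With only 5 members, 2 of 5 and 1 of 5 called are shares near those of all miRNAs called in either direction.

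These differences are relative to the other miRNAs of a library. A read total per library was worked out from the deposited RPM values, and it lay between 2243916 and 7729947 reads, far above the miRNA counts. Scaled to that total, the median log2 fold change of all 136 miRNAs on fish oil was −0.87 averaged over exposures, and 4 of the members had negative values (−0.47 for miR-10a-5p, −0.54 for miR-99a-5p, −0.49 for miR-99b-5p and −0.41 for miR-100-5p). miR-10b-5p kept a positive value of 0.50 on that scale but did not pass (adjusted p = 0.326, edgeR). On the RPM scale itself miR-10b-5p averaged 2.91 ± 2.38 RPM in fish oil ozone (SD, n = 5), 1.69 ± 0.389 in fish oil air, 1.73 ± 1.36 in normal ozone and 1.48 ± 1.13 in normal air (n = 6 each), differences smaller than the spread between rats. In serum, fewer miRNA molecules and a larger share of other RNA cannot be told apart.

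**Figure D2:**
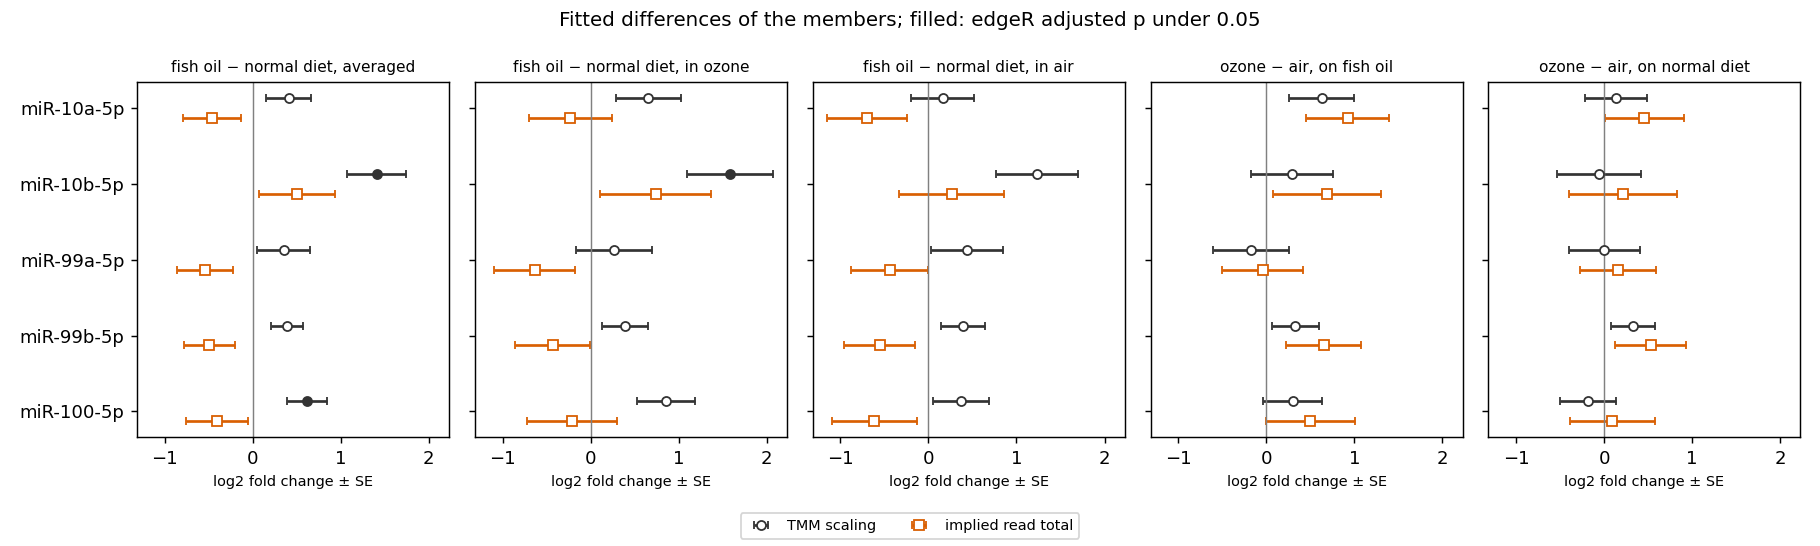
Fitted log2 fold changes of each member with SE for fish oil over the normal diet (averaged, in ozone, in air) and for ozone over air (on each diet), from edgeR. Circles are TMM scaling, filled where the adjusted p is below 0.05, and squares are scaling to the read total; on fish oil averaged over exposures miR-10b-5p is at 1.41 and 0.50, and the other members are at 0.35 to 0.61 and at −0.54 to −0.41.

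Ozone exposure was followed by no called change of any member on either diet. In rats on fish oil the log2 fold change of ozone over air was 0.63 ± 0.37 for miR-10a-5p (95% interval −0.10 to 1.35, adjusted p = 0.667), 0.33 ± 0.27 for miR-99b-5p (adjusted p = 0.803), 0.30 for miR-100-5p, 0.29 for miR-10b-5p and −0.18 for miR-99a-5p by edgeR. On the normal diet it was 0.14 for miR-10a-5p, 0.33 ± 0.25 for miR-99b-5p, −0.18 for miR-100-5p and −0.06 for miR-10b-5p, and adjusted p-values were 0.939 or higher. The intervals are wide, and that of miR-10a-5p on fish oil includes a doubling. Averaged over diets, miR-99b-5p had a log2 fold change of 0.33 ± 0.18 (unadjusted p = 0.0834, adjusted p = 0.794, edgeR) with 9 of 11 ozone libraries above the air mean of their diet. miR-10a-5p had 0.38 ± 0.26 (adjusted p = 0.794, edgeR) with 8 of 11.

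The fish oil effect was not called different between ozone and air for any member. The difference of the 2 log2 fold changes was 0.49 for miR-10a-5p (adjusted p = 0.935), 0.48 for miR-100-5p (adjusted p = 0.916), 0.35 for miR-10b-5p (adjusted p = 0.947) and −0.18 for miR-99a-5p by the edgeR interaction test. Among all 136 miRNAs the share called was 0% for ozone on fish oil, 0% for ozone on the normal diet and 0% for the interaction, and 0.735% for ozone averaged over diets. At an unadjusted p below 0.05, edgeR had 10 of the 136 for ozone on fish oil, 4 for ozone on the normal diet and 6 for the interaction. DESeq2 called 0, 1 and 0 of the 136 in those comparisons and limma voom 0 in each, with 0 members in all of them.

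Ratios between members of a library do not depend on how libraries are scaled, and those that differed between diets all held miR-10b-5p. Of the 10 pairs, 4 differed between diets with exposures averaged. These 4 share miR-10b-5p and its small counts, so they are not 4 separate results. Only members that passed the filter were paired, and miR-10b-5p passed it through fish oil libraries alone. Ratios between other miRNAs were not taken, so no share over all miRNAs stands beside this count. The log2 ratio of miR-10b-5p to miR-99b-5p averaged −4.22 ± 0.62 on fish oil (SD, n = 11) and −5.32 ± 0.97 on the normal diet (n = 12), a difference of 1.10 as the mean of the differences within each exposure (permutation p = 0.00352 two-sided with 100000 permutations within exposure, adjusted p = 0.0198 over the 10 pairs). Its log2 ratio to miR-99a-5p was −1.53 ± 0.98 on fish oil and −2.73 ± 0.88 on the normal diet, a within-exposure difference of 1.24 (permutation p = 0.00396, adjusted p = 0.0198). In both, 11 of 11 fish oil libraries were above the mean of the 12 normal diet libraries, though single libraries of the 2 diets overlap. Relative to its near-identical relative miR-10a-5p the log2 ratio was −6.73 ± 0.78 on fish oil and −7.78 ± 1.07 on the normal diet, a within-exposure difference of 1.03 (permutation p = 0.0149, adjusted p = 0.0409), and relative to miR-100-5p it was −1.15 ± 0.51 on fish oil and −2.03 ± 0.94 on the normal diet, a within-exposure difference of 0.88 (permutation p = 0.0164, adjusted p = 0.0409).

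The other 6 pairs, those without miR-10b-5p, had adjusted p-values of 0.618 to 0.693, and the log2 ratio of miR-10a-5p to miR-99b-5p differed by 0.07 between diets. Without fish oil ozone 3, which had the highest miR-10b-5p count, 0 of 10 pairs passed, and the ratios to miR-99a-5p and miR-99b-5p both had an adjusted p of 0.0505. The ratio to miR-10a-5p was also lost in 15 and the ratio to miR-100-5p in 17 of the 23 fits that left out 1 library. Within a single exposure 0 of 10 pairs passed for fish oil, under ozone (2 pairs at an unadjusted exact permutation p below 0.05) or under air (0 pairs). For ozone over air 0 of 10 pairs passed on either diet. The log2 ratio of miR-10a-5p to miR-99a-5p, on fish oil, had the 1 unadjusted exact permutation p below 0.05, at 0.0433, with a difference of 0.98 and an adjusted p of 0.433.

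**Figure D3:**
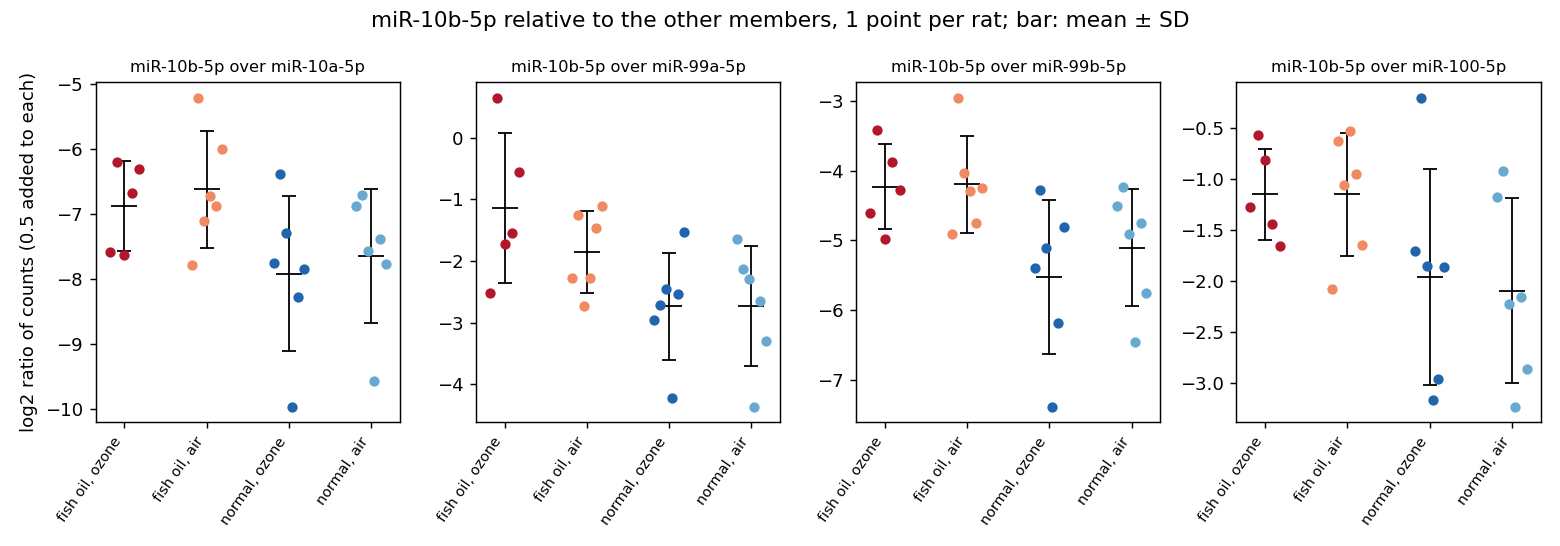
Log2 ratio of miR-10b-5p to each other member in each library (0.5 added to each count), by group, with mean ± SD. Fish oil libraries lie higher than normal diet libraries on average, by 0.88 to 1.24 on the log2 scale with exposures averaged.

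The 3p arms, which are usually the less abundant product of the same hairpin, were mostly too rare to test. miR-10a-3p passed the filter with a mean of 7.96 counts, a median of 0.553% of miR-10a-5p, and its log2 fold change on fish oil averaged over exposures was 0.79 ± 0.34 (unadjusted p = 0.0275, adjusted p = 0.0677, edgeR; 9 of 11 libraries above). miR-10b-3p was at 0 in 18 of 23 libraries and had at most 2 counts, so it gives no second reading of the miR-10b hairpin. miR-99a-3p had at most 3 counts, miR-99b-3p had 0 to 10 counts, and miR-100-3p had 0 counts in all 23 libraries.

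The let-7 and miR-125 partners, named for the clusters that hold the miR-99 and miR-100 genes, did not all move with them. Of 5 arms tested that have a locus in 1 of these clusters, 1 rose and 0 fell on fish oil averaged over exposures. Among all 136 miRNAs 19.9% were called as higher and 36.8% in either direction, so 1 of 5 is near the share called as higher. The one that rose was miR-125b-2-3p (log2 fold change 0.67 ± 0.22, adjusted p = 0.0151, edgeR; 9 of 11 libraries above), the 3p arm of the miR-125b copy named 2. The 5p arm, miR-125b-5p, usually the main product, had 0 to 6 counts per library and was not tested, whereas miR-125b-2-3p had 9 to 48. miR-125a-5p had a log2 fold change of 0.41 ± 0.25 (adjusted p = 0.204), let-7c-5p 0.06, let-7e-5p −0.05 and let-7a-5p −0.16 (adjusted p = 0.541) by edgeR. let-7a-5p and let-7c-5p come from more than 1 gene, so their levels are not those of 1 cluster. let-7a-1-3p and let-7c-2-3p, arms of let-7 copies that lie on chromosomes without a miR-99 or miR-100 gene, had log2 fold changes of 0.81 and 0.65 and did not pass (adjusted p = 0.0665 and 0.0793, edgeR).

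Within libraries, the log2 ratio of miR-100-5p to let-7a-5p was higher on fish oil under ozone and with exposures averaged, but did not pass under air. Under ozone it averaged −1.40 ± 0.43 on fish oil (SD, n = 5) and −2.73 ± 0.68 on the normal diet (n = 6), a difference of 1.33 (exact permutation p = 0.00866 two-sided, adjusted p = 0.0346 over 4 ratios), with 5 of 5 fish oil libraries above the normal diet mean. The smallest p that 5 against 6 allows is 0.00433. Under air the difference was 0.25 (exact permutation p = 0.416, adjusted p = 0.416 over 4 ratios). Averaged over exposures the difference was 0.79 (permutation p = 0.00661, adjusted p = 0.0264; 10 of 11 libraries). The ozone result was lost without any 1 of normal ozone 1 to 5 or fish oil ozone 1, 3, 5 and 6 (adjusted p up to 0.0762, exact permutation test), and the averaged one in 2 cases, those without normal air 6 (0.71, adjusted p = 0.0546, permutation test) or fish oil ozone 1 (0.72, adjusted p = 0.05, permutation test). The log2 ratio of miR-99b-5p to miR-125a-5p differed by 0.03 between diets (adjusted p = 0.823, permutation test).

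Across libraries the members fell into no single pattern. The correlations below are Spearman's rho over 23 libraries on log2 CPM, given as descriptions, since libraries share depth, scaling and group differences; the value in each second place is rho after subtracting group means. miR-10a-5p and miR-99b-5p, the 2 abundant members, lie on separate chromosomes yet were each other's most alike miRNA of the 136 (rho 0.88, and 0.85 without group means). Next for both came miR-125a-5p, the partner of miR-99b in its cluster (0.72 and 0.79 with miR-10a-5p, 0.81 and 0.88 with miR-99b-5p). In place 3 stood miR-30a-5p for miR-10a-5p (0.68 and 0.76) and the smooth muscle marker miR-143-3p for miR-99b-5p (0.80 and 0.80). By contrast let-7e-5p, which lies closest to miR-99b-5p on the chromosome but averaged 7.7 counts, had a rho of 0.18 with it.

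For miR-10b-5p the 3 most alike were miR-221-3p (0.75 and 0.25), miR-144-5p (0.75 and 0.14) and miR-30e-5p (0.72 and 0.23), and these values fell away once group means were subtracted. Its rho with miR-10a-5p was 0.24, and 0.06 without group means. At a mean of 8.48 counts for miR-10b-5p, counting error limits how high such a rho can be. miR-144-5p is an erythrocyte marker. With the log2 ratio of miR-451-5p to miR-23a-3p added to the fit, the log2 fold change of miR-10b-5p averaged over exposures was 1.41 and passed the edgeR threshold. That index does not contain miR-144-5p. Its group means were −2.19 in fish oil ozone, −1.88 in fish oil air, −2.79 in normal ozone and −2.14 in normal air. Whether erythrocytes had a part in the rise of miR-10b-5p was not tested. miR-99a-5p was most alike to let-7b-5p (0.65 and 0.66), let-7c-5p (0.60 and 0.67) and miR-106b-3p (0.57 and 0.43). miR-100-5p was most alike to miR-30a-5p (0.64 and 0.43), miR-10b-5p (0.60 and 0.30) and the smooth muscle marker miR-143-3p (0.58 and 0.22), and its rho with miR-99b-5p, which has the same seed, was 0.49 and 0.25.

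**Figure D4:**
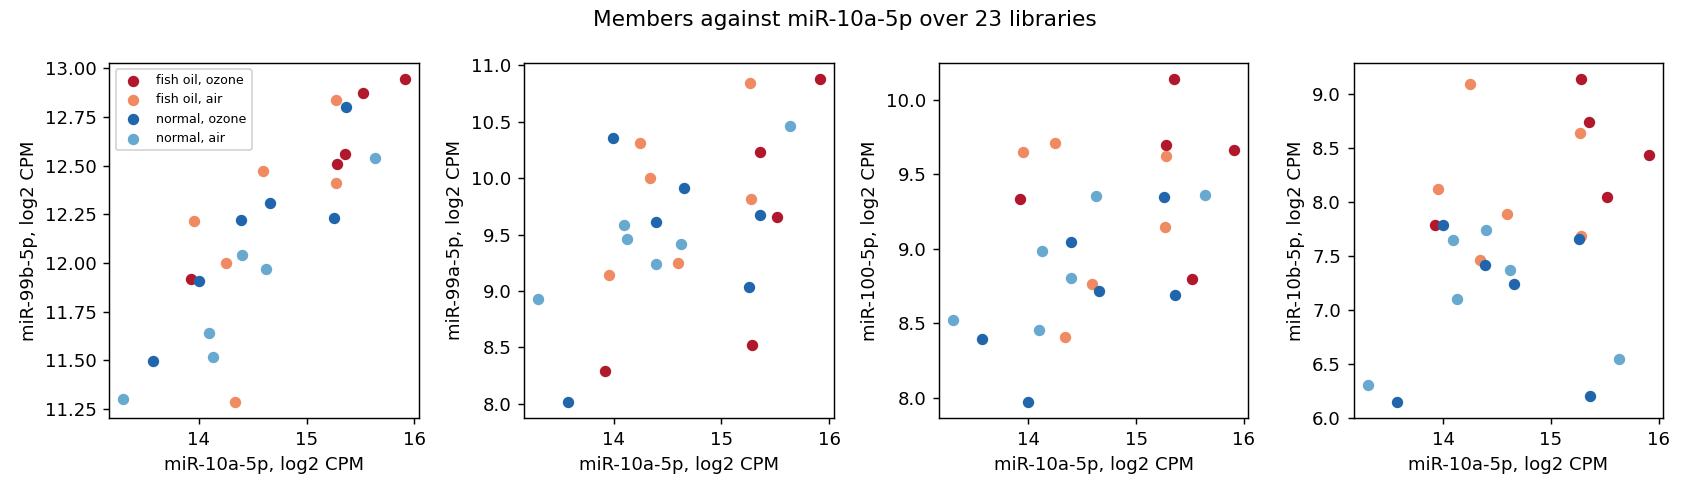
Log2 CPM of the other 4 members against that of miR-10a-5p, 1 point per library (23 libraries), coloured by group. miR-99b-5p follows miR-10a-5p (rho 0.88), while miR-10b-5p, with a mean of 8.48 counts, has a rho of 0.24 with it.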

How the data were processed

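Small RNA from 100 µl of rat serum was sequenced on a NextSeq instrument for 50 cycles from 1 end, per the labels' protocols. The authors deposited a table of expected counts per miRNA locus and a table of RPM. The submitters' processing notes name build rn5, Bowtie 1.0.0, Partek and bcl2fastq; annotation, filters and the handling of multiply matching reads were not given in the sources used here. Fractions occur at 50 of 832 loci. Loci of 1 name were summed and rounded to whole counts, and 440 of 753 names had a count. The deposited RPM equal counts over an unstated read total plus 0.0001, to within 0.0332 reads, which gave the implied read total. Counts were filtered (filterByExpr, minimum count 10, minimum total 15), TMM-scaled and compared in edgeR 4.0.16 (R 4.3.3) by its quasi-likelihood F test, in 1 fit of 4 groups, adjusted by Benjamini-Hochberg over 136 miRNAs at 0.05. Log2 ratios (0.5 added) were compared by permutation. The named miRNAs were all members, their 3p arms, their cluster partners and the 3 miRNAs most alike to each member. Members and lists were chosen with earlier results of these data known. Alternatives were DESeq2 1.42.0, limma 3.58.1 (voom, or RPM with pseudocount 0.5 or 0.1), other scalings, no filter, an erythrocyte covariate, only the groups compared, and leaving out each library. The fit was tested on simulated data. Nothing in the labels says that libraries were made in separate batches. The p-values rest on the spread between libraries of separate rats, which includes counting error. They treat rats as independent, although rats shared cages and cage mates are not marked.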

Additional observations from a re-analysis of the deposited data

How the results depend on the processing

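No paired analysis was possible because the labels give each group its own animal numbers, and replicate numbers follow accession order only. Members called on fish oil averaged over exposures numbered 2; this became 0 with the implied read total or with limma on RPM at either pseudocount, and 1 without the filter or with the erythrocyte covariate. In ozone the 1 call became 2 with DESeq2 and 0 with the implied total, with RPM at either pseudocount, without the filter and with only the groups compared, where miR-10b-5p was filtered out. Leaving out 1 library gave 1 to 3 calls averaged and 0 to 2 in ozone, 0 to 4 member ratios averaged, and 0 to 1 (ozone) and 0 to 2 (averaged) partner ratios. The cause was not tested in any of these.

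With the implied total, RPM at 0.5 and RPM at 0.1, in that order, log2 fold changes on fish oil turned negative for 4 members; miR-10b-5p stayed positive, at 0.50, 0.47 and 0.64 averaged and 0.74, 0.61 and 0.79 in ozone, but uncalled. Averaged, they were −0.47, −0.41 and −0.41 for miR-10a-5p, −0.54, −0.57 and −0.61 for miR-99a-5p, −0.49, −0.47 and −0.47 for miR-99b-5p, and −0.41, −0.24 and −0.25 for miR-100-5p. In air they were −0.70, −0.55 and −0.55 for miR-10a-5p, −0.44, −0.38 and −0.40 for miR-99a-5p, −0.55, −0.42 and −0.43 for miR-99b-5p, and −0.61, −0.44 and −0.47 for miR-100-5p. In ozone they were −0.23, −0.26 and −0.26 for miR-10a-5p, −0.64, −0.76 and −0.82 for miR-99a-5p, −0.43, −0.51 and −0.52 for miR-99b-5p, and −0.21, −0.04 and −0.03 for miR-100-5p. For ozone on the normal diet the same settings gave 0.09, 0.05 and 0.04 for miR-100-5p and 0.22, 0.14 and 0.16 for miR-10b-5p, which was 0.01 with total counts as library size. miR-99a-5p there was −0.02 with DESeq2, −0.09 with voom, −0.01 without the filter and −0.15 with the covariate, and 0.06 for ozone averaged with the implied total. The miR-99b-5p interaction was 0.01 with DESeq2, 0.01 with voom, 0.12 with the implied total, 0.06 without the filter and 0.02 with the covariate.

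Leaving out 1 library turned some uncalled values. On fish oil, miR-10a-5p in air ranged from −0.08 to 0.47 and miR-99a-5p in ozone from −0.31 to 0.47. For ozone on the normal diet, miR-10a-5p ranged from −0.02 to 0.48, miR-10b-5p from −0.24 to 0.15 and miR-99a-5p from −0.26 to 0.23. miR-99a-5p ranged from −0.72 to 0.07 for ozone on fish oil and from −0.38 to 0.03 for ozone averaged, where miR-100-5p ranged from −0.04 to 0.13 and miR-10b-5p from −0.02 to 0.24. The interaction ranged from −0.68 to 0.11 for miR-99a-5p and from −0.14 to 0.21 for miR-99b-5p. The log2 ratio of miR-99b-5p to miR-125a-5p on fish oil ranged from −0.26 to 0.07 in ozone and from −0.06 to 0.11 averaged, and that of miR-99a-5p to let-7c-5p in ozone from −0.02 to 0.4.

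Without the filter miR-100-5p averaged was 0.51 (adjusted p = 0.222, edgeR), with the covariate 0.54 (adjusted p = 0.0662, edgeR). Its call was lost when fish oil ozone 1, 3, 5 or 6, fish oil air 1, 2 or 6, normal ozone 1, 2, 4 or 5, or normal air 1, 2, 5 or 6 was left out. The ratio of miR-10b-5p to miR-10a-5p was lost when fish oil ozone 3, 5 or 6, any of fish oil air 2 to 6, any of normal ozone 4 to 6, or any of normal air 3 to 6 was left out. That to miR-100-5p was lost when fish oil ozone 1, 3, 4 or 5, any of fish oil air 2 to 6, or any of replicates 3 to 6 of either normal diet group was left out. Depth limits miR-10b-5p most, with 2 to 14 counts per normal diet library.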
